A study of Penicillium oxalicum with 9 samples.

Results

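The 64 genes described here are the glycosyltransferases that the gene table of Penicillium oxalicum names as transferases. Penicillium oxalicum is a mould known for its secreted cellulases and other enzymes of plant biomass degradation. A gene was taken where its description contains the word transferase and none of the words for chitin, 1,3-glucan or 1,6-glucan synthesis, mannosidase or hydrolase. Genes with locus numbers PDE_01681 to PDE_01687 were left out, which removed 2 transferases. The table lists 9786 genes, and the descriptions of 9397 read only hypothetical protein. The rule used no measured value. All 64 descriptions name the transfer of a sugar, though the KEGG orthologue entry of PDE_01966 names an acyltransferase and that of PDE_05596 a subunit of the glycosylphosphatidylinositol (GPI) machinery. A KEGG entry was present for 36 of the 64.

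RNA sequencing was done on mycelia of 3 strains with 3 biological replicates each. In dPoflbC the gene PoflbC was deleted, in dPoClrC the gene PoClrC, and in dCA what the labels write as CA. Every culture grew for 22 h in Vogel's medium with 2% glucose, stood for 2 h without carbon and was then held for 4 h on 2% cellulose, at 30 °C and 200 rpm. No strain without a deletion was among the samples, so a difference may lie with either strain of a pair. What CA stands for is not given, and no description in the table carries the name of a deleted gene, so the deletions could not be checked in the counts. In whole mycelium, fewer cells that express a gene and less RNA per cell cannot be told apart.

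Glycosyltransferases move a sugar from an activated donor to a protein, a lipid or a growing polysaccharide. In fungi a lipid-linked oligosaccharide is built on dolichol in the endoplasmic reticulum and moved as a whole to asparagines of secreted proteins, while protein O-mannosyltransferases place mannose on serines and threonines. Enzymes of the Golgi then lengthen these glycans with mannose, and other members make GPI anchors, glycolipids and wall or capsule polymers. Cellulases secreted by filamentous fungi are glycoproteins that carry such chains.

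Gene totals lay between 6.49 and 7.76 M reads a library (M stands for 1000000), and the upper limit set by a count of 0, which is 3 reads, was 0.387 to 0.462 reads per M reads and covers counting error only. RPKM, the unit of every level, is the reads of a gene for each kilobase of its coding length and each M reads of its library, and a strain's value is the mean ± SD of its libraries (n = 3). Log2 fold changes come from edgeR's quasi-likelihood test after scaling of the libraries, with the standard error (SE) taken from the test statistic, and their sign need not be that of the ratio of RPKM means. Genes are called, and described as having risen or fallen, at a Benjamini-Hochberg adjusted p under 0.05 over all 8681 genes tested with a log2 fold change of at least 1 in size. Replicate 2 of dCA lay apart from replicates 1 and 3, at 59.5 on the second principal component against 18.1 and 26.2 for the other dCA libraries, with a scaling factor of 0.680 against 0.906 and 0.869. It held the lowest RPKM of the 3 dCA libraries in 52 of the 62 glycosyltransferase genes tested and in 76.2% of all genes tested. After scaling it was the lowest in 35 of the 62 and the highest in 19. A zinc finger gene with the KEGG entry BrlA (PDE_00087), which starts asexual spore formation, was at 75.1 ± 6.31 RPKM in dPoflbC, 13.3 ± 2.22 RPKM in dPoClrC and 3.66 ± 1.97 RPKM in dCA. The other gene with that entry, PDE_00079, was at 0.734 to 1.27 RPKM as strain means and was not tested. The part of asexual development in the differences below was not tested.

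The 64 genes spanned a wide range of levels. Averaged over all 9 libraries, the median gene was at 21.5 RPKM, with quartiles of 12.0 and 49.2 RPKM. The median of all genes tested was 32.7 RPKM, with quartiles of 13.8 and 80.9 RPKM. A mean of 100 RPKM or more was reached by 9 of the 64, and 13 lay under 10 RPKM. The highest was PDE_09251, a putative N-acetylglucosaminyltransferase, at 607 RPKM over all libraries. It alone gave 5.98% to 6.58% of the summed RPKM of the 64 genes in dPoflbC, 26.8% to 30.0% in dPoClrC and 22.7% to 25.5% in dCA. Enough reads for a test were found for 62 of the 64, of which 56 had 10 or more reads in every library. The 2 without a test were the putative alpha-1,6-mannosyltransferase PDE_09021, with 1 read in dCA replicate 2 and 0 in the other 8 libraries, and the putative alpha-1,3-mannosyltransferase PDE_08928, at 0.911 ± 0.632 RPKM in dPoflbC, 0.706 ± 0.211 RPKM in dPoClrC and 0.339 ± 0.0290 RPKM in dCA. The 64 genes together took 0.496% to 0.501% of the reads in dPoflbC, 0.446% to 0.469% in dPoClrC and 0.386% to 0.478% in dCA.

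**Figure D1:**
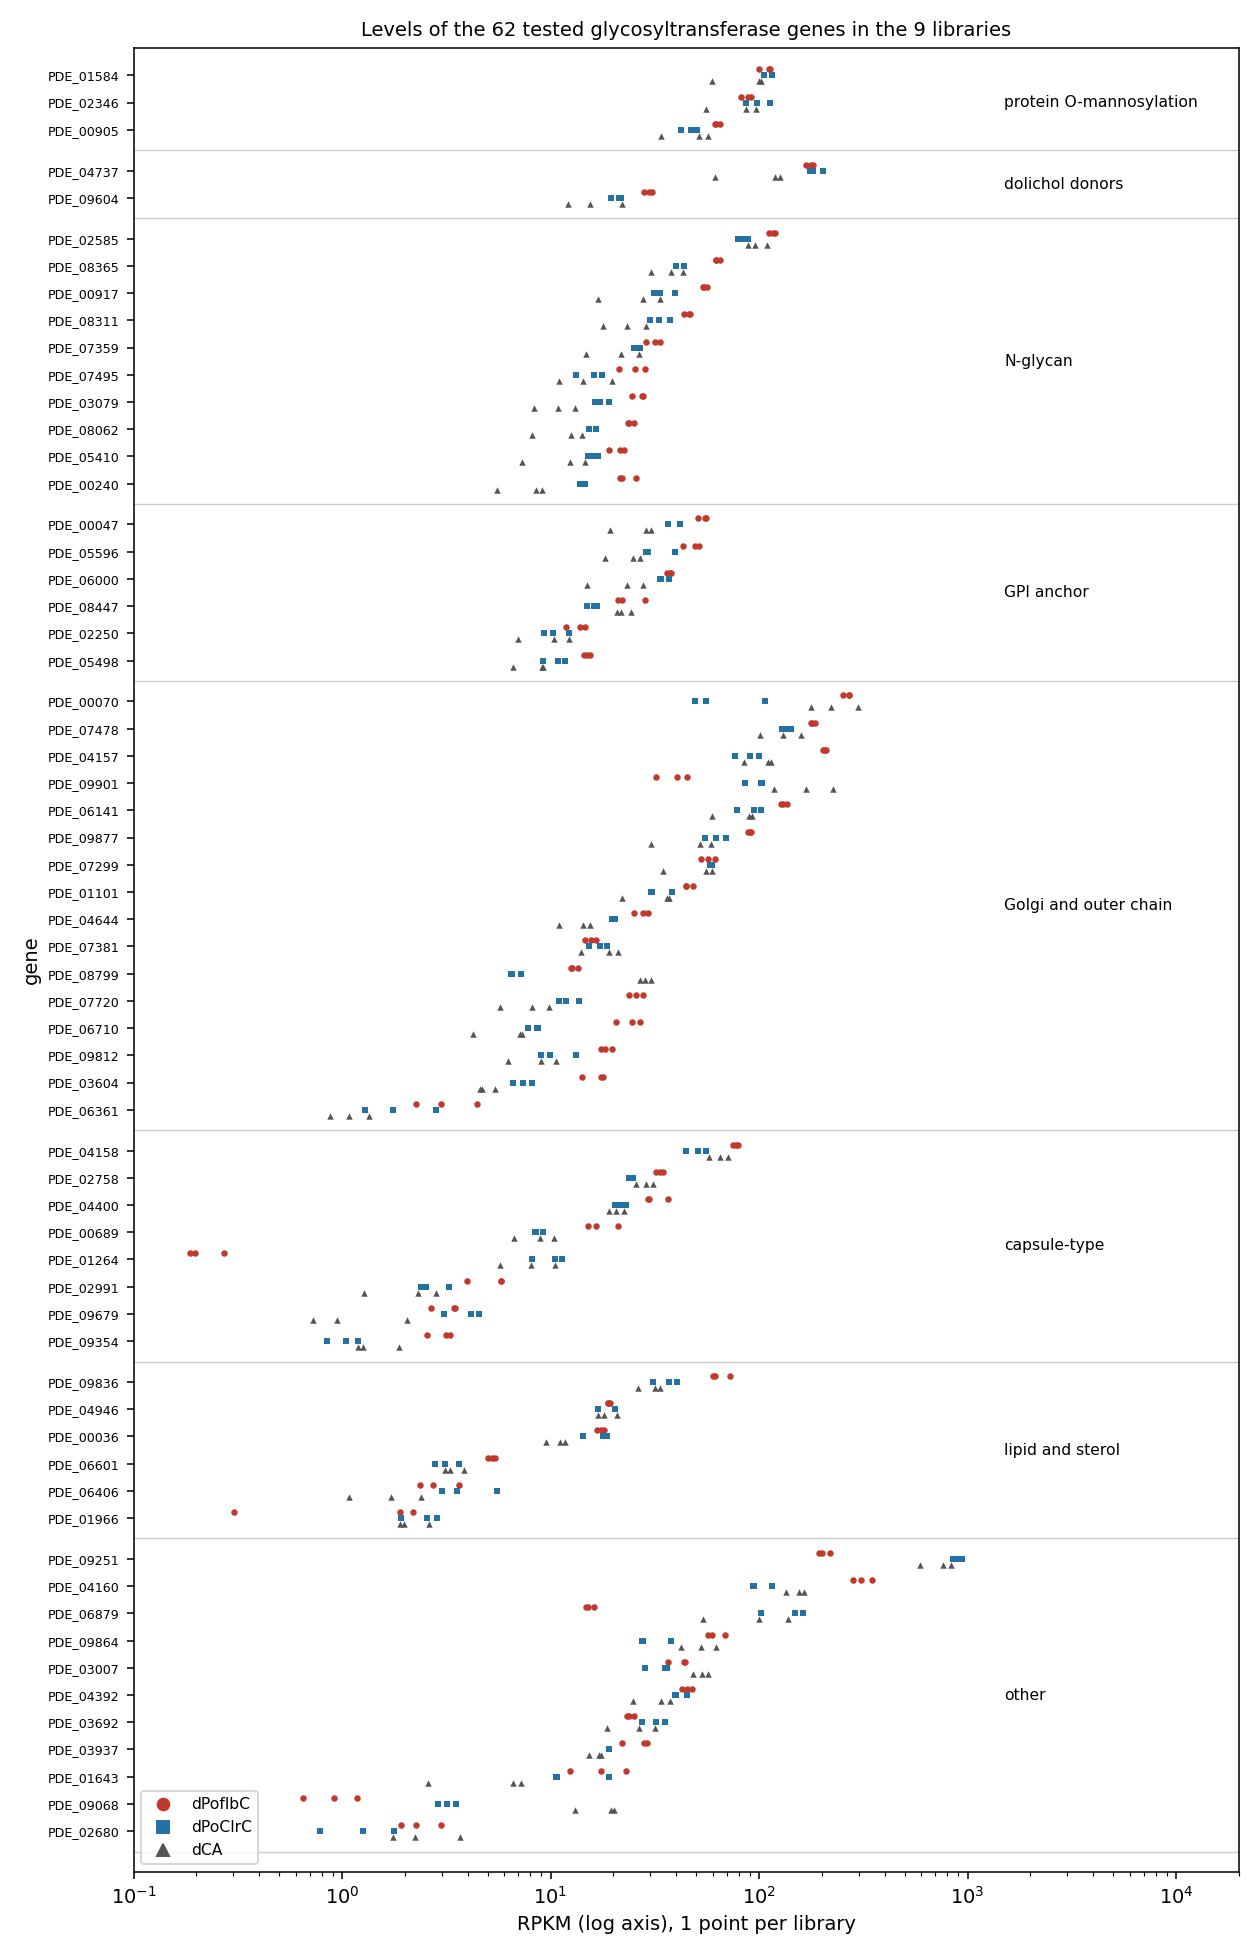
Level of each of the 62 tested genes in RPKM on a log axis, with 1 point per library and the genes grouped by role. Circles are dPoflbC, squares dPoClrC and triangles dCA. By RPKM 46 of the 64 genes had their highest mean in dPoflbC, as had 60.0% of all genes tested. The 5 genes called lower in dPoflbC than in both other strains were PDE_01264, PDE_06879, PDE_09068, PDE_09251 and PDE_09901.

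Which of these transcripts differed on cellulose between dPoflbC and dCA was the first question. Against dCA, 5 of the 62 tested genes rose in dPoflbC and 6 fell, where 11.4% and 15.8% of all genes tested rose and fell. The 6 that fell were the putative xylosyltransferase PDE_01264, the putative N-acetylglucosaminyltransferases PDE_09068 and PDE_09251, the putative galactosyltransferase PDE_06879, and the putative mannosyltransferases PDE_09901 and PDE_08799. The 5 that rose were PDE_06710 and PDE_07720, whose KEGG entries are subunits of a mannan polymerase complex, the putative alpha-mannosyltransferase PDE_03604, the putative N-glycan mannosyltransferase PDE_00240 and the putative polysialyltransferase PDE_01643. Called genes made up 11 of 62, against 27.1% of all genes tested. At any fold 37 of the 62 had an adjusted p under 0.05, against 60.9% of all genes tested. Scaled levels did not overlap between the strains in 41 of the 62, 22 higher and 19 lower in dPoflbC, against 68.2% of all genes tested, 30.9% higher and 37.2% lower. The largest rise was 1.38 and the largest fall -5.71 on the log2 scale. The median log2 fold change of the 62 was 0.12, against -0.070 over all genes tested. Without dCA replicate 2, 9 of the 11 calls were kept and PDE_00240 (0.96) and PDE_01643 (0.91) were not called. With no scaling of the libraries beyond their read totals 20 of the 62 rose and 6 fell, while the median of all genes tested moved to 0.51.

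The same was asked of dPoClrC and dCA. In dPoClrC 2 of the 62 genes rose and 6 fell, where 5.69% and 7.35% of all genes tested rose and fell. The putative alpha-1,3-mannosyltransferase PDE_09679 and the putative polysialyltransferase PDE_01643 rose. The putative N-acetylglucosaminyltransferases PDE_09068 and PDE_02680, the putative mannosyltransferases PDE_08799, PDE_00070 and PDE_09901, and the putative N-acetylgalactosaminyltransferase PDE_09864 fell. Called genes made up 8 of 62, against 13.0% of all genes tested. At any fold 26 of the 62 had an adjusted p under 0.05, against 37.8% of all genes tested. Scaled levels did not overlap in 31 of the 62, 10 higher and 21 lower in dPoClrC, against 50.6% of all genes tested, 24.4% higher and 26.3% lower. The median log2 fold change of the 62 was -0.0076, against 0.0017 over all genes tested. Without dCA replicate 2, 5 of the 8 calls were kept, and PDE_01643 (0.78), PDE_09901 (-0.75) and PDE_02680 (-0.82) were not called. With no scaling 3 rose and 3 fell. This comparison and that of dPoflbC with dCA share the dCA libraries.

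In the third comparison dPoflbC was set against dPoClrC. Here 4 of the 62 genes rose in dPoflbC and 5 fell, where 9.05% and 13.6% of all genes tested rose and fell. The putative mannosyltransferase PDE_00070, the mannan polymerase subunit PDE_06710, the putative N-acetylgalactosaminyltransferase PDE_04160 and the putative xylosyltransferase PDE_09354 rose. PDE_01264, PDE_06879, PDE_09251, PDE_09068 and PDE_09901 fell, and these 5 also fell in dPoflbC against dCA. Both comparisons use the same dPoflbC libraries, so the repeat is not independent. Called genes made up 9 of 62, against 22.6% of all genes tested. At any fold 30 of the 62 had an adjusted p under 0.05, against 57.1% of all genes tested. Scaled levels did not overlap in 49 of the 62, 32 higher and 17 lower in dPoflbC, against 69.6% of all genes tested, 34.9% higher and 34.8% lower. The median log2 fold change of the 62 was 0.19, against 0.011 over all genes tested. All 9 calls were kept without dCA replicate 2. With no scaling 8 rose and 5 fell, while all genes tested had a median of 0.29.

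**Figure D2:**
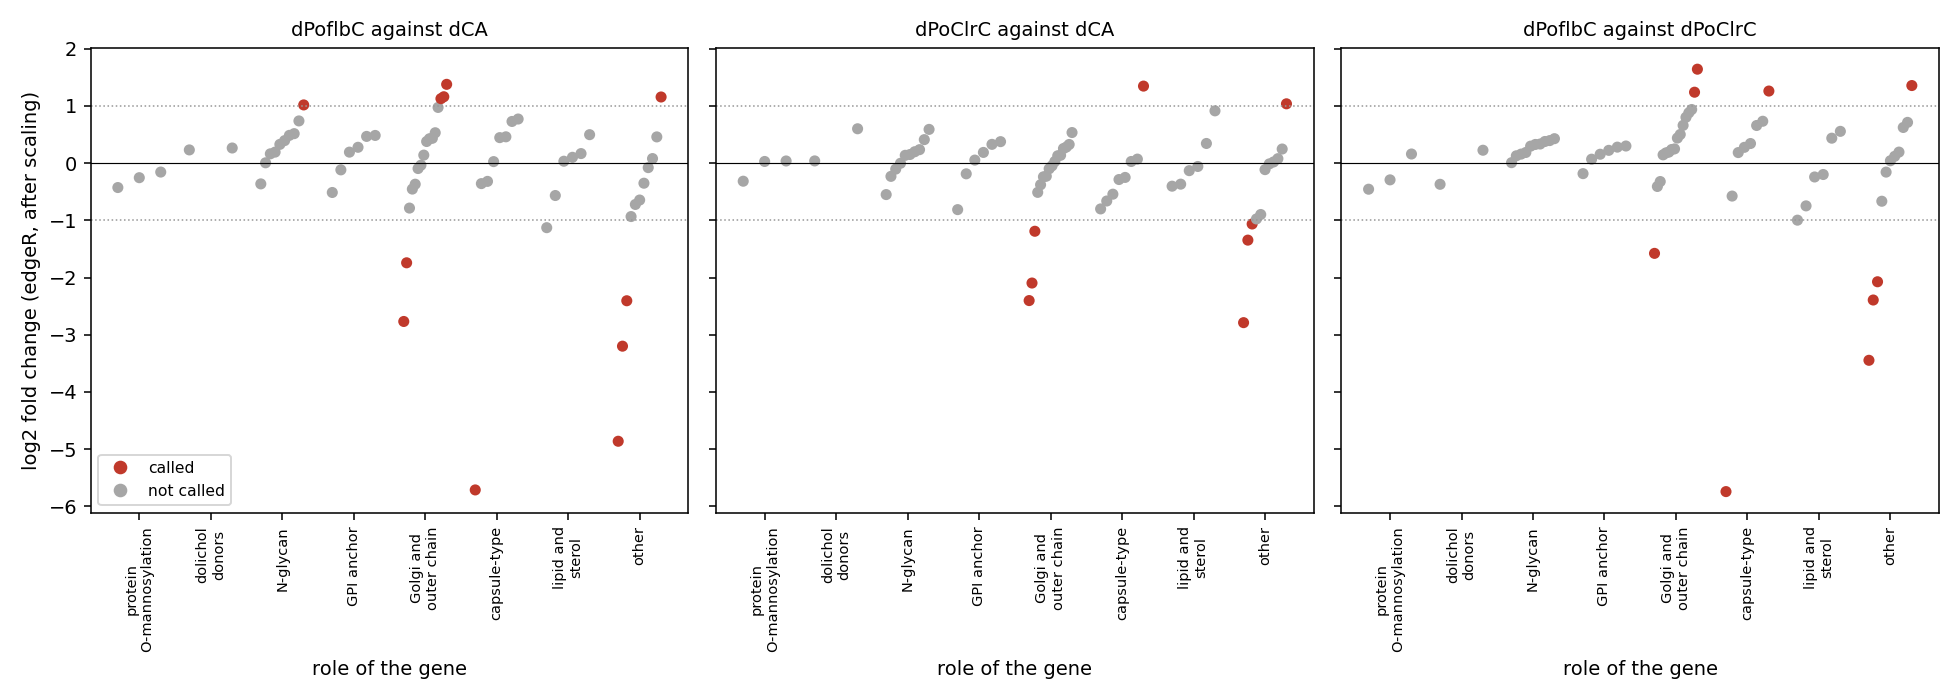
Log2 fold change after scaling of each of the 62 tested genes in the 3 comparisons, with 1 point per gene and the genes grouped by role. Red points are called, grey points are not, and dotted lines mark log2 fold changes of 1 and -1. No gene of protein O-mannosylation, dolichol donors, GPI anchors or lipid and sterol glycosylation is red, and the lowest points, at -5.71 and -5.74, are PDE_01264. Over all genes tested 27.1%, 13.0% and 22.6% were called, for the panels from left to right.

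Protein O-mannosylation and the donors of the endoplasmic reticulum had no called gene. Over all genes tested 27.1%, 13.0% and 22.6% were called in dPoflbC against dCA, dPoClrC against dCA and dPoflbC against dPoClrC. Nothing is read from a count of 0 in so few genes. The 3 putative protein mannosyltransferases, which move mannose from dolichyl phosphate to serine and threonine, were near the top of the levels. PDE_01584 was at 99.5, 111 and 112 RPKM in dPoflbC, 116, 105 and 106 RPKM in dPoClrC and 102, 59.7 and 99.6 RPKM in dCA. PDE_02346 was at 81.8, 91.6 and 88.2 RPKM in dPoflbC, 113, 86.1 and 98.0 RPKM in dPoClrC and 86.0, 55.4 and 96.7 RPKM in dCA. In both genes dCA replicate 2 was below all other libraries. The RPKM of the other libraries overlapped between strains, except that dCA lay below dPoClrC in PDE_01584. After scaling, dPoflbC lay below dPoClrC without overlap in both genes, and below dCA in PDE_02346. The log2 fold change of PDE_02346 was -0.43 (adjusted p = 0.0210) in dPoflbC against dCA and -0.46 (adjusted p = 0.0167) in dPoflbC against dPoClrC. PDE_00905 was at 63.0 ± 1.95 RPKM in dPoflbC, 46.6 ± 3.93 RPKM in dPoClrC and 47.4 ± 12.0 RPKM in dCA. The log2 fold changes of the 3 genes lay between -0.43 and -0.16 in dPoflbC against dCA, and between -0.32 and 0.038 in dPoClrC against dCA. The RPKM means of all 3 were higher in dPoflbC than in dCA, so this direction rests on the scaling. Over the 5 genes, edgeR gave an unadjusted p under 0.05 to 1, 2 and 3 genes in dPoflbC against dCA, dPoClrC against dCA and dPoflbC against dPoClrC, and DESeq2 and limma called 0. Of the 2 genes that charge dolichol, the putative dolichyl-phosphate mannosyltransferase PDE_04737, which makes the mannose donor, was at 167, 181 and 177 RPKM in dPoflbC, 182, 203 and 175 RPKM in dPoClrC and 119, 61.2 and 126 RPKM in dCA. Its log2 fold change of 0.60 ± 0.16 (SE), adjusted p = 0.0150 in dPoClrC against dCA was under the size that is called. The putative dolichyl-phosphate glucosyltransferase PDE_09604 was at 29.5 ± 1.25 RPKM in dPoflbC, 20.8 ± 1.21 RPKM in dPoClrC and 16.5 ± 4.999 RPKM in dCA and was not called.

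The 10 genes of N-glycan assembly, transfer and quality control had 1 call among them. In dPoflbC against dCA 1 of the 10 rose and 0 fell, against 27.1% of all genes tested called, with a median log2 fold change of 0.36. In the other comparisons edgeR, DESeq2 and limma called 0 of the 10. There edgeR called 13.0% of all genes tested in dPoClrC against dCA and 22.6% in dPoflbC against dPoClrC. Its unadjusted p was under 0.05 for 3 of the 10 in dPoClrC against dCA and for 6 in dPoflbC against dPoClrC. The gene that rose was PDE_00240, a putative dolichyl-phosphate-mannose mannosyltransferase that lengthens the lipid-linked oligosaccharide, at 22.0, 25.6 and 21.6 RPKM in dPoflbC, 13.9, 14.7 and 13.9 RPKM in dPoClrC and 9.06, 5.53 and 8.47 RPKM in dCA. The 3 strains did not overlap in it, with dPoflbC highest and dCA lowest. Its log2 fold change in dPoflbC against dCA was 1.02 ± 0.12 (SE), adjusted p = 5.42e-05, and it was 0.59 in dPoClrC against dCA. The call was also lost without dPoflbC replicate 2 (0.94). The highest of the 10 in level, the putative alpha-mannosyltransferase PDE_02585, was at 112, 119 and 116 RPKM in dPoflbC, 83.9, 88.8 and 79.4 RPKM in dPoClrC and 95.4, 109 and 88.0 RPKM in dCA. After scaling, PDE_02585 lay below dCA without overlap in both dPoflbC and dPoClrC. On the log2 scale this was -0.36 for dPoflbC (adjusted p = 0.0798) and -0.55 for dPoClrC (adjusted p = 0.0259), neither called. The other 9 of the 10 were above 0 in dPoflbC against dCA. The oligosaccharyltransferase subunit PDE_00917, which hands the finished oligosaccharide to the protein, was at 54.6 ± 1.19 RPKM in dPoflbC, 34.7 ± 4.35 RPKM in dPoClrC and 25.9 ± 8.37 RPKM in dCA. The log2 fold change of PDE_00917 in dPoflbC against dCA was 0.52 ± 0.15 (SE), adjusted p = 0.0114. The putative glucosyltransferase PDE_03079, which adds the last glucose of the lipid-linked oligosaccharide, had 0.74 ± 0.11 (SE), adjusted p = 2.59e-04. With no scaling PDE_00917, PDE_03079 and the mannosyltransferase PDE_08062 were called as well. The glycoprotein glucosyltransferase PDE_05410, a folding sensor that marks misfolded glycoproteins, was at 21.1 ± 1.77 RPKM in dPoflbC, 15.9 ± 0.871 RPKM in dPoClrC and 11.5 ± 3.75 RPKM in dCA and was not called (log2 fold change 0.33 in dPoflbC against dCA, adjusted p = 0.0653). The putative mannosyltransferase PDE_07359 had log2 fold changes of 0.0062 in dPoflbC against dCA, -0.0024 in dPoClrC against dCA and 0.0086 in dPoflbC against dPoClrC.

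The 6 genes of GPI anchor synthesis, which builds the lipid tail that holds many wall proteins, had no call by edgeR or DESeq2, while edgeR gave an unadjusted p under 0.05 to 4 of them in dPoflbC against dCA, 3 in dPoClrC against dCA and 0 in dPoflbC against dPoClrC. Over all genes tested edgeR called 27.1%, 13.0% and 22.6% in these comparisons, in the same order. With limma and with no scaling 2 of the 6 were called in dPoflbC against dCA, PDE_00047 and PDE_05596. The enzyme that starts the anchor, the KEGG class A gene PDE_00047, was at 50.8, 55.9 and 55.0 RPKM in dPoflbC, 41.9, 41.6 and 36.4 RPKM in dPoClrC and 30.2, 19.2 and 28.7 RPKM in dCA. It was higher in dPoflbC than in dCA by a log2 fold change of 0.48 ± 0.10 (SE), adjusted p = 0.00255. PDE_05596, with the KEGG entry class U, was at 47.9 ± 4.14 RPKM in dPoflbC, 32.5 ± 5.96 RPKM in dPoClrC and 23.3 ± 4.53 RPKM in dCA, with a log2 fold change of 0.47 ± 0.14 (SE), adjusted p = 0.0157 in dPoflbC against dCA. The mannosyltransferases of classes M, B and Z (PDE_06000, PDE_05498 and PDE_02250) had log2 fold changes of 0.19, 0.28 and -0.12 in that comparison. The class V gene PDE_08447, which adds the second mannose, was at 23.8 ± 3.89 RPKM in dPoflbC, 16.0 ± 0.963 RPKM in dPoClrC and 22.3 ± 1.77 RPKM in dCA. Its log2 fold change was -0.81 ± 0.17 (SE), adjusted p = 0.00560 in dPoClrC against dCA. Over the 6 genes the values lay between -0.51 and 0.48 in dPoflbC against dCA.

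Golgi and outer-chain mannosylation held 17 genes, of which 16 were tested. In dPoflbC against dCA 3 rose and 2 fell, in dPoClrC against dCA 0 rose and 3 fell, and in dPoflbC against dPoClrC 2 rose and 1 fell. That is 31.3%, 18.8% and 18.8% of the 16, against 27.1%, 13.0% and 22.6% of all genes tested, and nothing is read from these counts. In Saccharomyces cerevisiae the mannan polymerase complexes build the mannose backbone of the outer chain. The 4 genes whose KEGG entries name subunits of these complexes all had log2 fold changes above 0 in dPoflbC against dCA. After scaling, 9 of the 16 tested genes of this role and 4017 of all 8681 genes tested were above 0. With no scaling the 4 were above 0 too, where the median of all genes tested was 0.51. The MNN11 subunit PDE_06710, described as a galactosyl transferase, was at 26.7, 24.6 and 20.6 RPKM in dPoflbC, 8.71, 7.80 and 8.60 RPKM in dPoClrC and 7.11, 4.25 and 7.29 RPKM in dCA. Every dPoflbC library was above every library of the other strains, and its log2 fold changes were 1.38 ± 0.16 (SE), adjusted p = 3.72e-05 against dCA and 1.24 ± 0.15 (SE), adjusted p = 7.48e-05 against dPoClrC. The ANP1 subunit PDE_07720 was at 27.9, 25.5 and 23.8 RPKM in dPoflbC, 11.9, 11.0 and 13.7 RPKM in dPoClrC and 8.16, 5.71 and 9.86 RPKM in dCA, with a log2 fold change of 1.13 ± 0.14 (SE), adjusted p = 8.18e-05 against dCA. The MNN9 subunit PDE_04644 was at 27.4 ± 2.00 RPKM in dPoflbC, 19.9 ± 0.451 RPKM in dPoClrC and 13.6 ± 2.28 RPKM in dCA, with a log2 fold change of 0.43 ± 0.10 (SE), adjusted p = 0.00432 against dCA, under the size that is called. The MNN10 subunit PDE_06361, also described as a galactosyl transferase, was low, at 3.23 ± 1.11 RPKM in dPoflbC, 1.96 ± 0.780 RPKM in dPoClrC and 1.10 ± 0.234 RPKM in dCA, and its log2 fold change against dCA was 0.97 ± 0.37 (SE), adjusted p = 0.0419. It passed the threshold in 7 of the alternatives, among them no scaling, DESeq2 and the fit without dCA replicate 2. In dPoClrC against dCA the 4 subunits had values of 0.14, 0.33, 0.26 and 0.54, in the order given, and none was called.

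Among the other Golgi genes, the putative alpha-mannosyltransferase PDE_03604, with a KEGG entry for alpha-1,2-mannosyl transfer, rose in dPoflbC. It was at 14.1, 17.8 and 17.5 RPKM in dPoflbC, 6.62, 8.12 and 7.39 RPKM in dPoClrC and 4.69, 4.57 and 5.43 RPKM in dCA. Its log2 fold change against dCA was 1.16 ± 0.17 (SE), adjusted p = 1.82e-04. PDE_07381, with the same KEGG entry, was at 15.6 ± 0.954 RPKM in dPoflbC, 17.1 ± 1.65 RPKM in dPoClrC and 18.1 ± 3.63 RPKM in dCA and had -0.79 ± 0.13 (SE), adjusted p = 3.93e-04, below the size that is called. The putative alpha-1,6-mannosyltransferase PDE_09812, whose KEGG entry is an alpha-1,6-mannosyltransferase, was at 18.4 ± 1.22 RPKM in dPoflbC, 10.7 ± 2.23 RPKM in dPoClrC and 8.60 ± 2.18 RPKM in dCA and had 0.53 ± 0.17 (SE), adjusted p = 0.0201. The highest gene of this role not called in any comparison was the putative alpha-1,2-mannosyltransferase PDE_07478, at 185, 179 and 178 RPKM in dPoflbC, 142, 129 and 133 RPKM in dPoClrC and 158, 101 and 130.0 RPKM in dCA. Its RPKM was higher in dPoflbC than in dCA, while its scaled levels in dPoflbC lay below those of dCA without overlap. The log2 fold change between these strains was -0.094 (adjusted p = 0.436).

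The 3 genes of this role that fell have descriptions that give a linkage or a sugar and no step of the pathway. The putative alpha-mannosyltransferase PDE_09901 was at 32.0, 40.3 and 45.2 RPKM in dPoflbC, 85.3, 103 and 102 RPKM in dPoClrC and 118, 227 and 168 RPKM in dCA. The strains did not overlap and were ordered with dPoflbC lowest and dCA highest. Its log2 fold changes were -2.77 ± 0.31 (SE), adjusted p = 3.37e-05 in dPoflbC against dCA, -1.19 ± 0.29 (SE), adjusted p = 0.0107 in dPoClrC against dCA and -1.58 ± 0.30 (SE), adjusted p = 0.00125 in dPoflbC against dPoClrC. The call in dPoClrC against dCA was lost without dCA replicate 2, which had the highest RPKM of all libraries, and also with no scaling and with both limma fits (-0.82 to -0.75 over these 4 alternatives). The putative alpha-1,6-mannosyltransferase PDE_08799 was at 13.5, 12.6 and 12.6 RPKM in dPoflbC, 7.21, 6.54 and 6.45 RPKM in dPoClrC and 28.2, 30.2 and 26.9 RPKM in dCA. It was highest in dCA and lowest in dPoClrC, with log2 fold changes of -1.74 ± 0.16 (SE), adjusted p = 7.82e-06 in dPoflbC against dCA and -2.40 ± 0.17 (SE), adjusted p = 1.17e-05 in dPoClrC against dCA. The putative alpha-1,6-mannosyltransferase PDE_00070 was at 271, 253 and 270.2 RPKM in dPoflbC, 106, 55.6 and 49.1 RPKM in dPoClrC and 178, 298 and 222 RPKM in dCA. Its dPoClrC libraries were below all others, while those of dPoflbC lay within the range of dCA. The log2 fold changes were -2.10 ± 0.33 (SE), adjusted p = 0.00116 in dPoClrC against dCA and 1.64 ± 0.33 (SE), adjusted p = 0.00170 in dPoflbC against dPoClrC. Within dPoClrC replicate 1 was higher than replicates 2 and 3, and without it the value against dCA was -2.50.

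The 9 genes grouped as capsule-type mannosyl and xylosyl transferases, of which 8 were tested, held the largest fall. Of the 9 descriptions, 5 name glucuronoxylomannan, the capsule polysaccharide of Cryptococcus, and the other 4 read alpha-1,3-mannosyltransferase. Whether this fungus makes such polymers was not tested. PDE_01264, a putative beta-1,2-xylosyltransferase, was at 0.197, 0.186 and 0.273 RPKM in dPoflbC, 8.14, 11.4 and 10.5 RPKM in dPoClrC and 10.4, 5.72 and 8.04 RPKM in dCA. It had 10 reads over the dPoflbC libraries, against 431 reads over those of dPoClrC and 354 reads over those of dCA. The log2 fold changes were -5.71 ± 0.29 (SE), adjusted p = 1.90e-07 in dPoflbC against dCA and -5.74 ± 0.28 (SE), adjusted p = 2.56e-07 in dPoflbC against dPoClrC. With limma on log2(RPKM + 1), which compresses low levels, these were -2.86 and -3.16. The 4 other genes with the same description did not fall in dPoflbC against dCA. PDE_02758, the highest of them, was at 34.6, 32.0 and 33.5 RPKM in dPoflbC, 24.9, 24.0 and 23.8 RPKM in dPoClrC and 31.1, 25.7 and 28.8 RPKM in dCA, with a log2 fold change of -0.36 in dPoflbC against dCA. PDE_00689, PDE_02991 and PDE_09354 had 0.45, 0.73 and 0.46. PDE_09354 was at 2.54, 3.14 and 3.31 RPKM in dPoflbC, 0.846, 1.19 and 1.04 RPKM in dPoClrC and 1.198, 1.26 and 1.87 RPKM in dCA and was called in dPoflbC against dPoClrC, with 1.26 ± 0.26 (SE), adjusted p = 0.00194. Its RPKM did not overlap between those strains, and with limma on log2(RPKM + 1) the value was 0.98 and not called.

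Among the 4 putative alpha-1,3-mannosyltransferases, PDE_09679 rose in dPoClrC. It was at 3.45, 2.67 and 3.47 RPKM in dPoflbC, 4.55, 4.17 and 3.09 RPKM in dPoClrC and 0.944, 0.725 and 2.05 RPKM in dCA. The dPoClrC libraries were all above those of dCA, with a log2 fold change of 1.35 ± 0.33 (SE), adjusted p = 0.0100 from 7 to 20 reads per dCA library. PDE_04158 was the highest of the 4, at 79.6, 74.7 and 77.7 RPKM in dPoflbC, 51.1, 55.4 and 44.4 RPKM in dPoClrC and 71.1, 57.3 and 64.6 RPKM in dCA. It was below dCA in dPoClrC by a log2 fold change of -0.66 ± 0.10 (SE), adjusted p = 0.00110. PDE_04400 was at 31.8 ± 4.21 RPKM in dPoflbC, 21.6 ± 1.28 RPKM in dPoClrC and 20.7 ± 1.64 RPKM in dCA and was not called.

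Of the 6 genes of lipid and sterol glycosylation 0 were called by edgeR, which gave an unadjusted p under 0.05 to 3 in dPoflbC against dCA, 4 in dPoClrC against dCA and 3 in dPoflbC against dPoClrC. Over all genes tested edgeR called 27.1%, 13.0% and 22.6% in these comparisons, in the same order. DESeq2 called PDE_01966 in dPoflbC against dCA. The putative ceramide glucosyltransferase PDE_09836, which makes glucosylceramide, was at 72.3, 61.1 and 59.9 RPKM in dPoflbC, 37.0, 40.2 and 31.1 RPKM in dPoClrC and 31.7, 26.2 and 33.3 RPKM in dCA. The dPoflbC libraries were above all others, with log2 fold changes of 0.50 ± 0.12 (SE), adjusted p = 0.00379 against dCA and 0.56 ± 0.11 (SE), adjusted p = 0.00216 against dPoClrC. The first of these passed the threshold with no scaling and with limma. PDE_04946, with a KEGG entry for a sterol glucosyltransferase, was at 18.8, 19.3 and 18.8 RPKM in dPoflbC, 20.3, 16.8 and 16.9 RPKM in dPoClrC and 20.9, 18.1 and 16.9 RPKM in dCA, so that the RPKM of the 3 strains overlapped. After scaling its log2 fold change in dPoflbC against dCA was -0.57 ± 0.12 (SE), adjusted p = 0.00217. The putative sterol glucosyltransferases PDE_06601 and PDE_06406 had means of 1.73 to 5.23 RPKM over the strains. PDE_06406 was higher in dPoClrC than in dCA by 0.91 ± 0.28 (SE), adjusted p = 0.0278, and with no scaling and with limma on log2(RPKM + 0.1) it was called. The putative mannosyltransferase PDE_00036 and the gene described as a ceramide galactosyltransferase, PDE_01966, were not called by edgeR (0.10 and -1.13 in dPoflbC against dCA, adjusted p = 0.485 and 0.0612). PDE_01966 had 3 reads in dPoflbC replicate 1 and 23 and 18 in the other dPoflbC libraries.

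The 11 remaining genes, described as N-acetylglucosaminyl, N-acetylgalactosaminyl, galactosyl, polysialyl or unspecified transferases, held 4 calls in each comparison, 1 higher and 3 lower. That is 36.4% of the 11, against 27.1%, 13.0% and 22.6% of all genes tested in dPoflbC against dCA, dPoClrC against dCA and dPoflbC against dPoClrC, and the difference was not tested. PDE_09251, the putative N-acetylglucosaminyltransferase with the highest level of all 64 genes, was at 219, 201 and 195 RPKM in dPoflbC, 846, 877 and 939 RPKM in dPoClrC and 828, 594 and 764 RPKM in dCA. All dPoflbC libraries were below all others. The RPKM ranges of dPoClrC and dCA were near each other without overlapping, while the scaled levels of these strains overlapped. The log2 fold changes were -2.41 ± 0.12 (SE), adjusted p = 2.47e-07 in dPoflbC against dCA and -0.013 ± 0.12 (SE), adjusted p = 0.940 in dPoClrC against dCA. PDE_04392, with the same description, was at 45.2 ± 2.30 RPKM in dPoflbC, 41.5 ± 3.23 RPKM in dPoClrC and 32.0 ± 6.55 RPKM in dCA and had -0.078 in dPoflbC against dCA, which was not called. The putative beta-1,3-galactosyltransferase PDE_06879 was at 15.1, 16.1 and 14.8 RPKM in dPoflbC, 102, 149 and 163 RPKM in dPoClrC and 138, 53.6 and 99.7 RPKM in dCA. Its dPoflbC libraries were below all others, with -3.20 ± 0.26 (SE), adjusted p = 4.03e-06 against dCA and -3.45 ± 0.26 (SE), adjusted p = 3.13e-06 against dPoClrC.

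PDE_09068 is described as an N-acetylglucosaminyltransferase of the kind that, in animals, branches N-glycans at a mannose. It was at 1.17, 0.647 and 0.914 RPKM in dPoflbC, 3.19, 2.87 and 3.51 RPKM in dPoClrC and 20.1, 19.6 and 13.1 RPKM in dCA. The 3 strains did not overlap, with dPoflbC lowest and dCA highest, and it was called in all 3 comparisons. The log2 fold changes were -4.86 ± 0.30 (SE), adjusted p = 7.19e-07 in dPoflbC against dCA, -2.79 ± 0.25 (SE), adjusted p = 5.71e-05 in dPoClrC against dCA and -2.07 ± 0.35 (SE), adjusted p = 6.68e-04 in dPoflbC against dPoClrC. PDE_09901 was the other gene called in all 3, with the same order of strains.

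The putative alpha-1,4-N-acetylgalactosaminyltransferase PDE_04160 was at 348, 281 and 308 RPKM in dPoflbC, 115, 93.3 and 94.1 RPKM in dPoClrC and 155, 135 and 164 RPKM in dCA. It was highest in dPoflbC and lowest in dPoClrC, with 1.36 ± 0.12 (SE), adjusted p = 9.30e-06 between these strains. PDE_09864, described as a transferase of lipopolysaccharide, was at 68.3, 56.5 and 59.2 RPKM in dPoflbC, 37.8, 27.4 and 27.6 RPKM in dPoClrC and 52.9, 42.4 and 61.8 RPKM in dCA. In dPoClrC against dCA it had -1.06 ± 0.14 (SE), adjusted p = 3.74e-04, a call that was lost with no scaling (-0.76), with both limma fits (-0.76 and -0.74) and without dPoClrC replicate 2, dPoClrC replicate 3 or dCA replicate 3 (-0.995 to -0.98). The putative polysialyltransferase PDE_01643, the longest of the 64 coding sequences at 8628 bases, was at 12.4, 17.4 and 22.9 RPKM in dPoflbC, 19.0, 10.7 and 10.6 RPKM in dPoClrC and 6.59, 2.57 and 7.19 RPKM in dCA. Both dPoflbC and dPoClrC were above dCA, by 1.16 ± 0.33 (SE), adjusted p = 0.0116 and 1.04 ± 0.33 (SE), adjusted p = 0.0327. Beside the loss of both calls without dCA replicate 2, that of dPoflbC was lost without dPoflbC replicate 3 (0.90) and that of dPoClrC without dPoClrC replicate 1 (0.73). PDE_02680, a putative alpha-1,4-N-acetylglucosaminyltransferase at 2.27, 1.92 and 2.98 RPKM in dPoflbC, 0.781, 1.25 and 1.77 RPKM in dPoClrC and 1.76, 3.68 and 2.23 RPKM in dCA, fell in dPoClrC against dCA with -1.35 ± 0.44 (SE), adjusted p = 0.0374. Its RPKM in dPoClrC replicate 3 and dCA replicate 1 overlapped, at 1.77 and 1.76 RPKM, and the call was lost in 9 of 17 alternatives. The putative peptide N-acetylglucosaminyltransferase PDE_03007, which in animals modifies proteins inside the cell, was at 41.4 ± 4.08 RPKM in dPoflbC, 33.3 ± 4.31 RPKM in dPoClrC and 52.6 ± 4.45 RPKM in dCA. It was just under the size that is called, at -0.93 ± 0.13 (SE), adjusted p = 1.40e-04 in dPoflbC against dCA. In dPoClrC against dCA it had -0.98 ± 0.13 (SE), adjusted p = 4.70e-04, and was not called either. Its scaled levels lay below dCA without overlap in both comparisons. In dPoClrC against dCA it was called without dPoClrC replicate 1, dPoClrC replicate 3 or dCA replicate 3 (-1.02 in each). PDE_03692 and PDE_03937 were not called in any comparison.

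**Figure D3:**
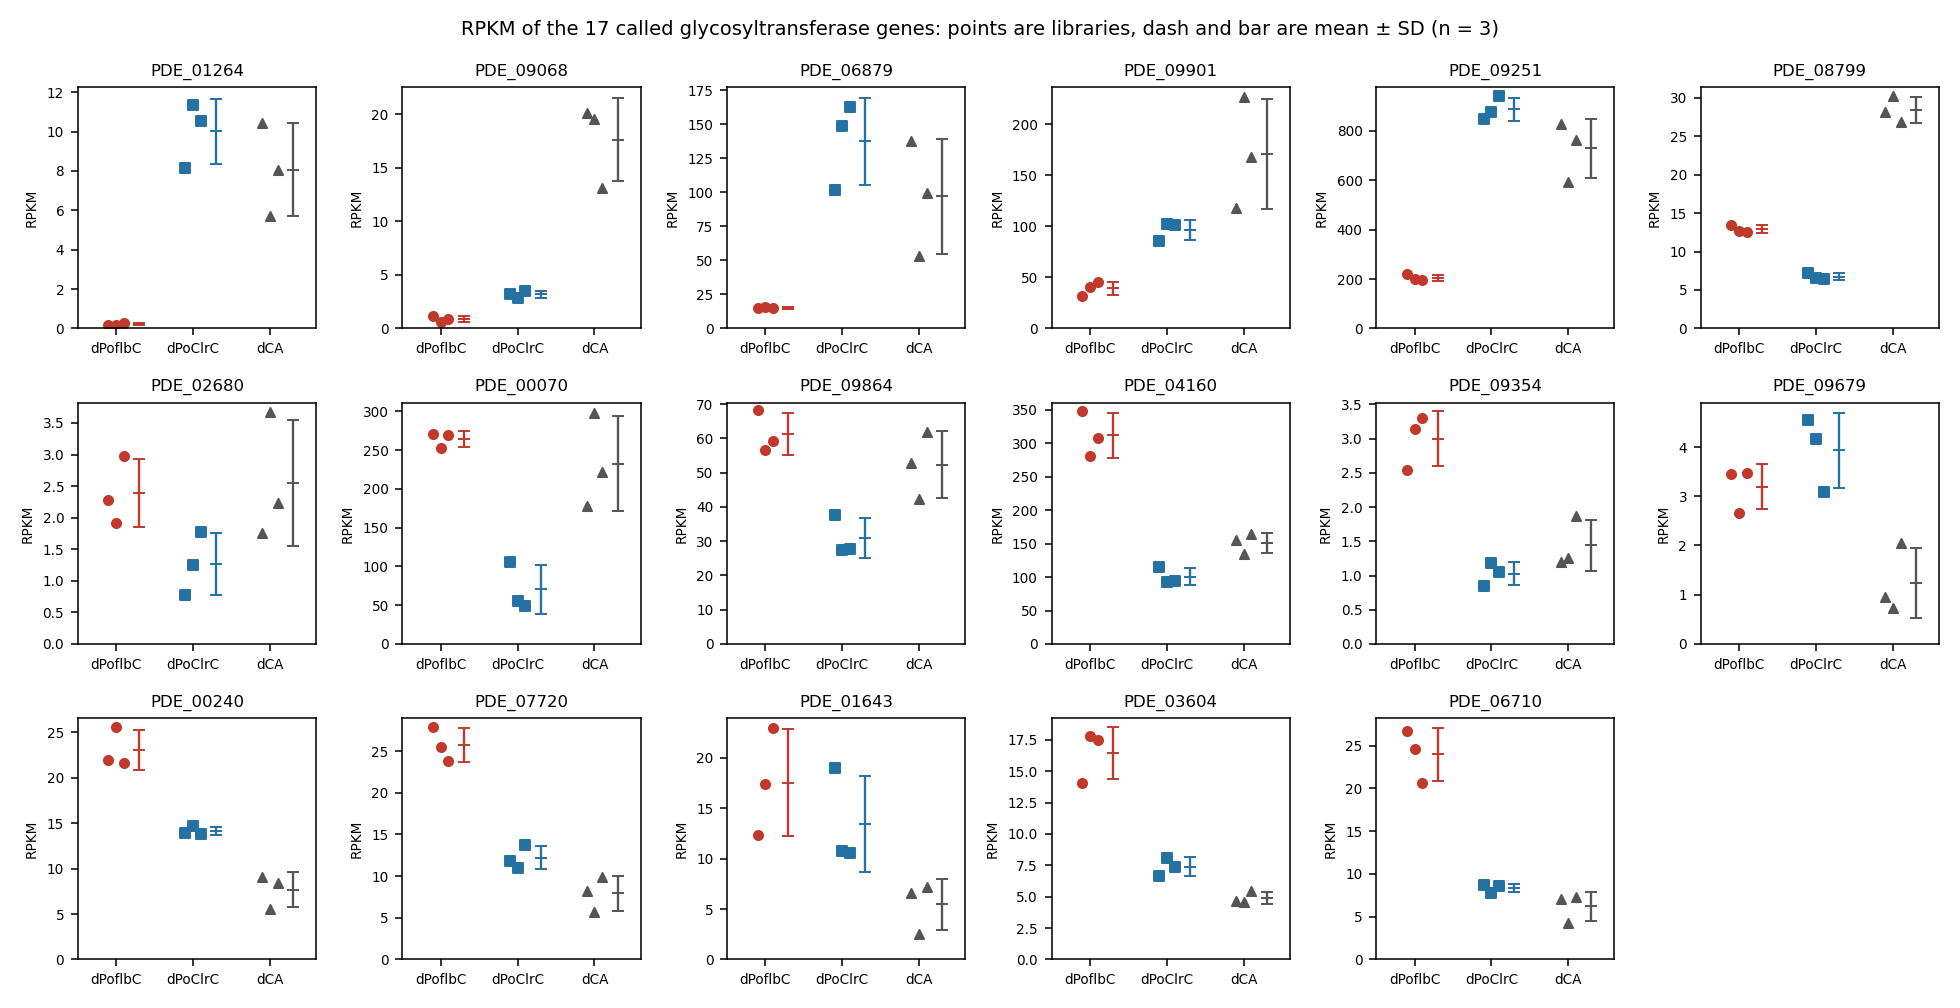
RPKM of the 17 genes called in at least 1 comparison, ordered by log2 fold change in dPoflbC against dCA. Points are libraries, with the 3 strains from left to right, and the dash with its bar is the mean ± SD (n = 3). PDE_01264, PDE_06879 and PDE_09251 are low in dPoflbC alone, PDE_00070 is low in dPoClrC, and PDE_08799 is high in dCA.

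Over the 3 comparisons 17 of the 62 genes were called at least once and 45 never, where 35.9% of all genes tested were called at least once. Of the 17, 8 were called in 1 comparison, 7 in 2 and 2 in all 3. In 5 of the 62 the level was called lower in dPoflbC than in both other strains, where 9.43% of all genes tested showed this. Only PDE_06710 was higher in dPoflbC than in both others by the same rule, where 5.66% of all genes tested were. PDE_00070 was the only one of the 62 lower in dPoClrC than in both others (2.06% of all genes tested). Scaled levels of all 3 strains were apart from each other in 16 of the 62 genes, against 26.1% of all genes tested, and 4 showed no strain apart from another, against 12.3%. By plain RPKM means, 46 of the 64 were highest in dPoflbC, 11 in dPoClrC and 7 in dCA, where 60.0%, 27.0% and 13.0% of all genes tested were. Replicates spread least in dPoflbC, with a median coefficient of variation after scaling of 6.59%, against 11.2% in dPoClrC and 13.6% in dCA. Over all genes tested these were 8.18%, 10.6% and 14.4%.

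A KEGG entry was a feature that the rule did not use. Of the 27 tested glycosyltransferase genes without an entry 12 were called in at least 1 comparison, and of the 35 with an entry 5 were. Over all genes tested the shares were 39.7% without an entry and 30.2% with one. Locus numbers were another. The members PDE_04157, PDE_04158 and PDE_04160 have near-consecutive numbers, while their positions in the genome were not used here. PDE_04157, a putative alpha-1,6-mannosyltransferase, was at 206 ± 3.91 RPKM in dPoflbC, 88.8 ± 11.4 RPKM in dPoClrC and 103 ± 15.6 RPKM in dCA. In dPoflbC against dPoClrC, PDE_04157, PDE_04158 and PDE_04160 had log2 fold changes of 0.94, 0.34 and 1.36, of which the last was called. In dPoClrC against dCA they had -0.51, -0.66 and -0.90, none of them called. In dPoflbC against dCA they had 0.43, -0.32 and 0.46, so that PDE_04158 had the opposite sign, and none was called. The gene numbered between them, PDE_04159, described as a deacetylase of an amino-sugar inositol, had 1.49 in dPoflbC against dPoClrC, -0.85 in dPoClrC against dCA and 0.63 in dPoflbC against dCA.

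Other genes of the same pathways, found by words of their descriptions and KEGG entries, were described alongside. Over all genes tested edgeR called 27.1% in dPoflbC against dCA, 13.0% in dPoClrC against dCA and 22.6% in dPoflbC against dPoClrC. Of 11 further N-glycan genes, such as the other oligosaccharyltransferase subunits, 0 were called by edgeR in dPoflbC or dPoClrC against dCA. In dPoflbC against dPoClrC 1 rose, PDE_07494, with 1.08 and adjusted p = 0.0110. Its first KEGG entry is a cytochrome c oxidase assembly factor, and its second is the mannosyltransferase entry of PDE_07495, whose number is the next one and which was not called (0.39). By edgeR 6 of the 11 had an unadjusted p under 0.05 in dPoflbC against dCA and 3 in dPoClrC against dCA. DESeq2 called 1 and limma 4 in dPoflbC against dCA, and both called 0 in dPoClrC against dCA. Of 10 further GPI anchor genes edgeR and DESeq2 called 0 in any comparison, limma called 3 in dPoflbC against dCA, and edgeR's unadjusted p was under 0.05 for 5, 5 and 3 genes in dPoflbC against dCA, dPoClrC against dCA and dPoflbC against dPoClrC, with medians of 0.29, 0.045 and 0.17 in dPoflbC against dCA, dPoClrC against dCA and dPoflbC against dPoClrC.

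Among enzymes that supply nucleotide sugars, the share called was near or below that of all genes tested. In dPoflbC against dCA 2 of 11 such genes rose and 1 fell, while 1 rose in dPoClrC against dCA, and 1 rose and 1 fell in dPoflbC against dPoClrC, where 27.1%, 13.0% and 22.6% of all genes tested were called. The aminotransferase PDE_02490, which makes glucosamine 6-phosphate for N-acetylglucosamine donors, was at 559 ± 23.1 RPKM in dPoflbC, 216 ± 21.2 RPKM in dPoClrC and 186 ± 33.3 RPKM in dCA and rose in dPoflbC (1.02 against dCA). A UDP-glucose 4-epimerase, PDE_01637, which interconverts the glucose and galactose donors, was at 558 ± 89.3 RPKM in dPoflbC, 623 ± 193 RPKM in dPoClrC and 107 ± 61.8 RPKM in dCA, and rose in both dPoflbC and dPoClrC against dCA. PDE_07302, with the same KEGG entry, had 0.63 and 0.84 in these comparisons and was not called. A mannose-6-phosphate isomerase, PDE_05573, was at 22.5 ± 2.14 RPKM in dPoflbC, 126 ± 4.73 RPKM in dPoClrC and 55.1 ± 13.4 RPKM in dCA, with -1.86 in dPoflbC against dCA. PDE_00164, with the same KEGG entry, was at 155 ± 8.93 RPKM in dPoflbC, 196 ± 11.4 RPKM in dPoClrC and 150 ± 43.4 RPKM in dCA. It had -0.51 in dPoflbC against dCA and was not called. Of 6 secretory mannosidases and glucosidases, PDE_00333 fell in dPoflbC against dCA (-1.45), PDE_02485 rose in dPoClrC against dCA (2.10) and PDE_02485 fell in dPoflbC against dPoClrC (-1.57), with the other genes not called.

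Of 12 tested glycogen and trehalose genes, 1 rose in dPoflbC against dCA, 2 rose in dPoClrC against dCA, and 1 rose and 2 fell in dPoflbC against dPoClrC, where 27.1%, 13.0% and 22.6% of all genes tested were called. A trehalose 6-phosphate synthase, PDE_01411, was at 9.24 ± 4.37 RPKM in dPoflbC, 0.776 ± 0.543 RPKM in dPoClrC and 0.302 ± 0.0848 RPKM in dCA. PDE_08181, with the same KEGG entry, was at 90.7 ± 4.74, 66.9 ± 3.11 and 46.5 ± 12.5 RPKM in these strains and was not called. PDE_01521, PDE_05219 and PDE_00891, with the same description, were also higher in level and not called. The glycogen phosphorylase PDE_00122 and the branching enzyme PDE_07278 rose in dPoClrC against dCA (1.72 and 1.05). In dPoflbC against dPoClrC PDE_01411 rose (3.28), and PDE_00122 and the glycogen synthase PDE_09899 fell (-2.03 and -1.15). Of 12 tested chitin and glucan synthases, 1 rose and 1 fell in dPoflbC against dCA, 0 were called in dPoClrC against dCA (edgeR's unadjusted p was under 0.05 for 6, DESeq2 and limma on log2(RPKM + 1) called 0 and limma on log2(RPKM + 0.1) called 1), and 1 rose and 2 fell in dPoflbC against dPoClrC, against 27.1%, 13.0% and 22.6% of all genes tested called in either direction. The gene that rose in dPoflbC was PDE_07868 both times (1.05 against dCA and 1.31 against dPoClrC). It is described as a hypothetical protein and was listed by its KEGG entry for a glucan synthase. That match scored far below the match of PDE_08248 to the same entry. No gene described as a chitin or glucan synthase rose in any comparison. The chitin synthase PDE_05710 was at 8.81 ± 1.98 RPKM in dPoflbC, 41.4 ± 1.62 RPKM in dPoClrC and 26.7 ± 5.59 RPKM in dCA and fell in dPoflbC (-2.17 against dCA). These lists are given by their counts and were not tested as lists.

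In dPoflbC against dCA the median of all genes tested was 0.51 with no scaling and -0.07 with scaling. No called gene changed sign under the 17 alternatives. Over the 28 calls, 26 of 476 recomputed values were no longer called, and they belonged to 6 genes: PDE_00240, PDE_01643, PDE_02680, PDE_09354, PDE_09864 and PDE_09901.

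**Figure D4:**
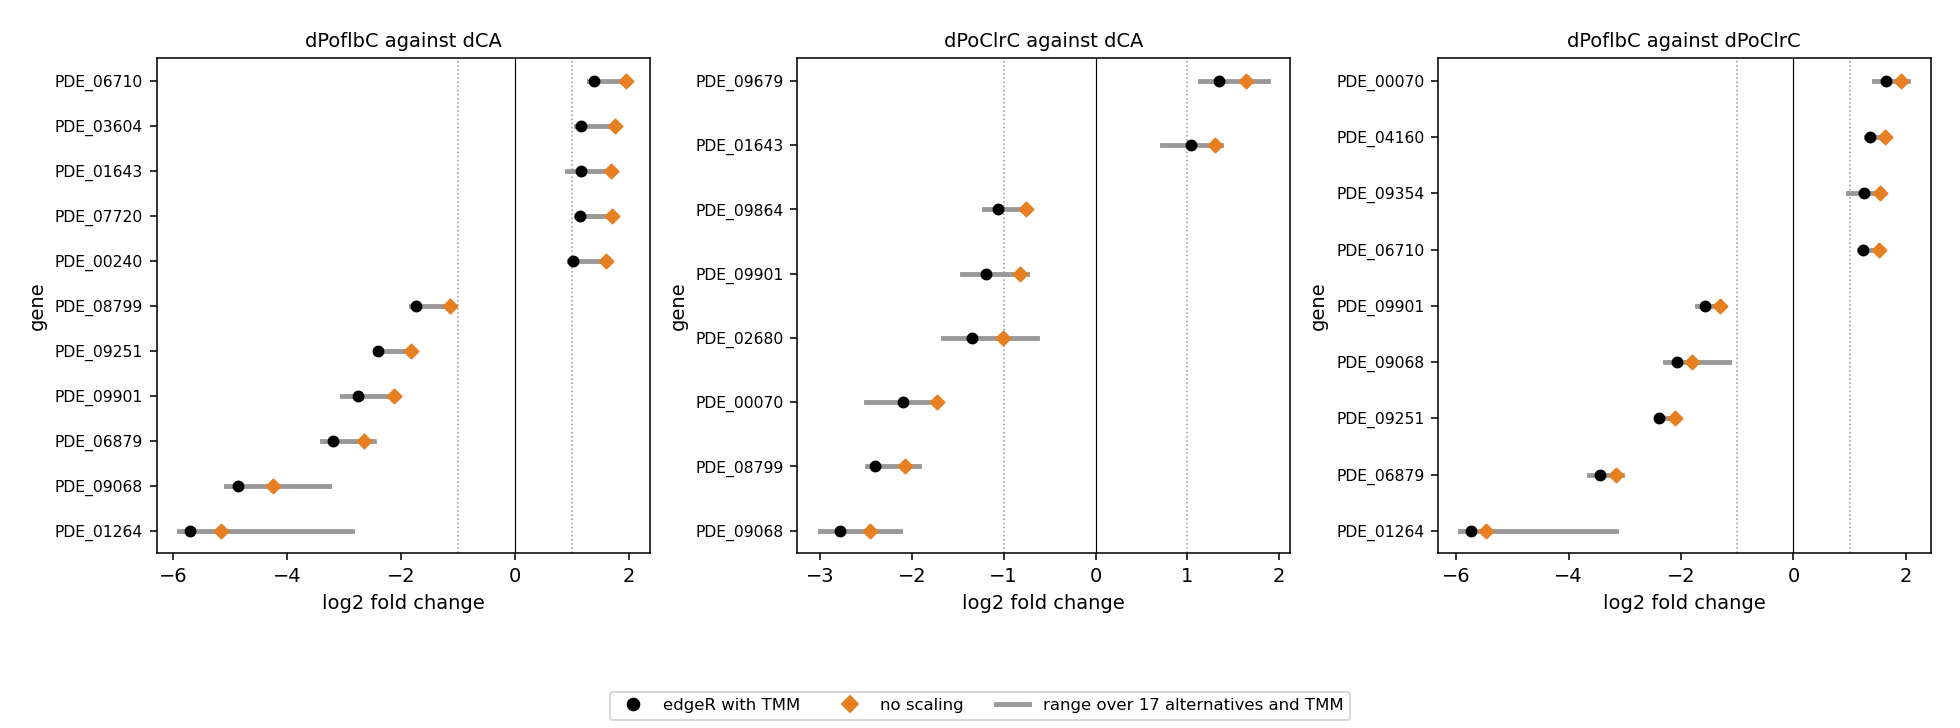
Log2 fold change of each called gene in the 3 comparisons. Black points are edgeR with scaling, diamonds are edgeR with no scaling, and grey bars give the range over the 17 alternatives and the scaled fit. Every bar stays on its side of 0, and the bars of PDE_01643, PDE_02680, PDE_09864 and PDE_09901 in dPoClrC against dCA cross a dotted line at a log2 fold change of 1 or -1.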

How the data were processed

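RNA of 9 mycelial samples, 3 strains with 3 biological replicates each, was sequenced. The authors deposited 1 table with the count of uniquely mapped reads and the RPKM of every gene in each library, per the file headers. The submitters' processing notes name CASAVA 1.8. Aligner, counter, genome build and strand setting: not given in the sources used here. Recomputed from counts, the deposited RPKM equal the counts divided by coding length and by the library total of the headers. Reads shared by near-identical genes are left out of a count of unique reads, so levels of any close copies are uncertain. Whether genes with a shared description are close copies was not examined.

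Counts of all 9 libraries were fitted together with edgeR 4.0.16 (R 4.3.3), with the quasi-likelihood test, a filter on low counts and scaling by trimmed mean of M values, and p-values were adjusted by Benjamini-Hochberg over 8681 genes. The script was tested on simulated data. Alternatives were no scaling, median-of-ratios scaling, no filter, DESeq2 1.42.0, limma 3.58.1 on log2(RPKM + 1) and log2(RPKM + 0.1), fits of 2 strains alone, a replicate block and leaving out each library. Standard errors were computed from the log2 fold change and its F statistic.

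The members, the lists and the tests were chosen with earlier results of these data known. Roles were assigned by hand from descriptions and KEGG entries, without values, since the search words planned for the roles put the 3 protein O-mannosyltransferases with N-glycan assembly. Genes were named by rule: in each comparison up to 6 called genes in each direction and the 2 of highest mean RPKM in each role, with other called genes by their fold change. Further genes named beside these were chosen after their values were seen. Replicate numbers did not pair the samples. No gene sequence or genome position is given, since the reference table at hand is of another strain and matched 0 of the locus numbers.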

Additional observations from a re-analysis of the deposited data

How the results depend on the processing

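Scaling moved the counts of calls most. In dPoflbC against dCA, 20 of the 62 glycosyltransferase genes rose with no scaling, 14 with limma on log2(RPKM + 1) and 20 with limma on log2(RPKM + 0.1), against 5 with scaling, and over all genes tested 2272, 2079 and 2323 rose, against 988, while 757, 686 and 733 fell, against 1368. In dPoClrC against dCA, 3 fell under each of these, against 6 with scaling, and 887, 760 and 933 of all genes rose, against 494, while 413 fell with limma on log2(RPKM + 1), against 638. In dPoflbC against dPoClrC, 8 rose with no scaling and 7 with limma on log2(RPKM + 0.1), against 4 with scaling, and 1289 and 1273 of all genes rose, against 786. RPKM and the fit with no scaling correct for the read total of a library and for nothing further, so these alternatives share that choice. The cause of the shift between libraries was not tested.

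Leaving out each library in turn gave 4 to 6 genes higher and 6 to 7 lower in dPoflbC against dCA (956 to 1069 and 1269 to 1437 of all genes). It gave 1 to 3 higher and 4 to 6 lower in dPoClrC against dCA (416 to 613 and 507 to 726), with 1 higher without dPoClrC replicate 1 or dCA replicate 2. It gave 4 to 5 higher and 5 lower in dPoflbC against dPoClrC (739 to 845 and 1147 to 1233). Of the 476 recomputed values of the 28 calls 450 kept the call, 26 lost it and 0 changed sign.

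Same-numbered libraries had correlations of -0.18 to 0.12, so the numbers were not read as pairing. Each library correlated best with its own number in dPoflbC against dPoClrC alone. With the replicate block the counts were 5 higher and 6 lower in dPoflbC against dCA, 2 and 6 in dPoClrC against dCA, and 4 and 5 in dPoflbC against dPoClrC. Depth limits PDE_01264 and PDE_09068, with 3 to 12 reads in each dPoflbC library, and log2(RPKM + 1) took the fall of PDE_09068 in dPoflbC against dCA to -3.27.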
